A study of Mus musculus with 54 samples.

Results

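The Ugt1a locus of the mouse encodes UDP-glucuronosyltransferases, membrane enzymes of the endoplasmic reticulum that attach glucuronic acid to bilirubin, steroids, drugs and phenols so that these can leave the body in bile or urine. Its transcripts share their 3′ exons and differ in the first exon, each of which has a promoter of its own and encodes the part of the enzyme that binds the substrate. The 7 genes described here, Ugt1a1, Ugt1a2, Ugt1a6a, Ugt1a6b, Ugt1a7c, Ugt1a9 and Ugt1a10, were picked by symbol from the 54232 Ensembl genes in the count files, after earlier results for the kidney contrast, which Ugt1a10 led, were known. Kidney values of these genes with and without treatment are therefore a description, and no p-value of a member is given for that contrast. The treatment field of the 11 kidney libraries gives the opposite of their titles and source names. The grouping follows the titles, as do the library headings in a table of the study, and every kidney direction below rests on it. In kidney, Ugt1a10 lay above every vehicle library in 6 of 6 treated libraries, with a mean 6.09 times that of vehicle. Ugt1a7c, which took 97.4% ± 0.652 (SD, n = 5) of the counts on the 7 genes in vehicle kidney, had a treated mean 1.14 times that of vehicle with overlapping groups, and the ratio for the summed level was 1.21. Counts on Ugt1a7c may include reads of other members from a 3′ tail of the last exon. In heart and brain the locus was close to silent.

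The question of the experiment was what Cmpd60 does to gene expression in aged organs. Cmpd60 is a benzamide inhibitor of the histone deacetylases HDAC1 and HDAC2, enzymes that take acetyl groups off histones. Male BL6 mice about 20 months old received Cmpd60 at 22.5 mg/kg or its vehicle by daily intraperitoneal injection over 14 days, and poly-A RNA was sequenced from kidney (6 Cmpd60, 5 vehicle), brain (6 and 6) and heart (5 and 6). Male APPSWE-1349 mice of 6 to 7 months, which carry a transgene for human amyloid precursor protein with the Swedish mutation on the BL6 background, and littermates of the same age received the same treatment, with brain libraries from 4 Cmpd60 and 5 vehicle transgenic mice and from 5 and 5 littermates. Vehicle mice had the same course of injections, and the labels give every mouse as male. Young kidney and heart were not analysed here.

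The first exons are what the counts of these genes rest on, and the sequence around the splice junction shows why. Below, the last 40 bases of each first exon are in lower case and the first 40 bases of the common second exon are in capitals (GENCODE M1 transcripts).
Ugt1a10: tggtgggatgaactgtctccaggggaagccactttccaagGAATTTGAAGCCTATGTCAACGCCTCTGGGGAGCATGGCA
Ugt1a9: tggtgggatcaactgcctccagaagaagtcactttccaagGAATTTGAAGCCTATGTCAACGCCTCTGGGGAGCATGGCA
Ugt1a7c: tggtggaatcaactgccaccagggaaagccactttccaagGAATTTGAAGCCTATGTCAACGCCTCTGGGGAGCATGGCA
Ugt1a6b: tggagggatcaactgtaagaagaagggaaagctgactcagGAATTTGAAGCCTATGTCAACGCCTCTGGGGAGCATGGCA
Ugt1a6a: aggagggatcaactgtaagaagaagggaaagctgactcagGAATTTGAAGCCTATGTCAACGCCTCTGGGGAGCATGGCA
Ugt1a2: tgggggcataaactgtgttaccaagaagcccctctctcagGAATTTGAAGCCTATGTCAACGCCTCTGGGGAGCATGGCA
Ugt1a1: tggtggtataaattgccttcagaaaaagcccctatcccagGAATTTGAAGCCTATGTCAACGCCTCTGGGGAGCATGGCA

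**Figure D1:**
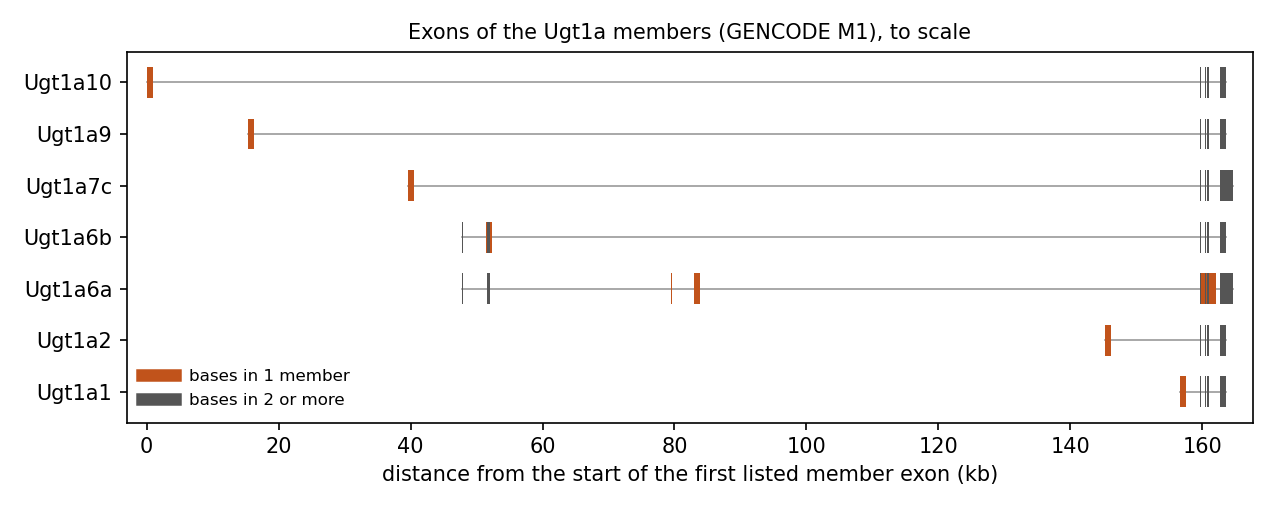
Exons of the 7 genes in GENCODE M1, plotted by distance in kb from the start of the first member exon, with bases found in 1 member in orange and bases found in 2 or more in grey (the narrowest exons are drawn with a minimum width). The first exons lie one after another over the locus, and the 4 common exons lie together at its 3′ end.

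The capital stretch was identical in all 7 genes, and so were the 1311 bases of the 4 common exons as a whole. A read that falls there cannot be told to come from one gene, and a counter set not to count ambiguous reads drops it, so the bases that can be counted for 6 of the genes were 518 to 949 bases of unshared first exon. Ugt1a6a had 3001 unshared bases, 1081 in first exons and 1920 beside the common exons at the 3′ end. The family resemblance among first exons was uneven. Ugt1a6a and Ugt1a6b were 94.9% identical there, and 48.3% of all 50-base windows of the Ugt1a6b first exon also occurred in Ugt1a6a, so their counts are uncertain against each other. Ugt1a10 and Ugt1a9 were 87.0% identical, with 6.3% of the Ugt1a10 windows shared, while Ugt1a1 shared no window with another member. One more property bears on Ugt1a7c. A tail of 998 bases at the 3′ end of the last exon was annotated for Ugt1a7c and Ugt1a6a only, and the annotation used for counting may give it to 1 gene alone, in which case reads from any transcript of the locus would be counted on that gene there.

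**Figure D2:**
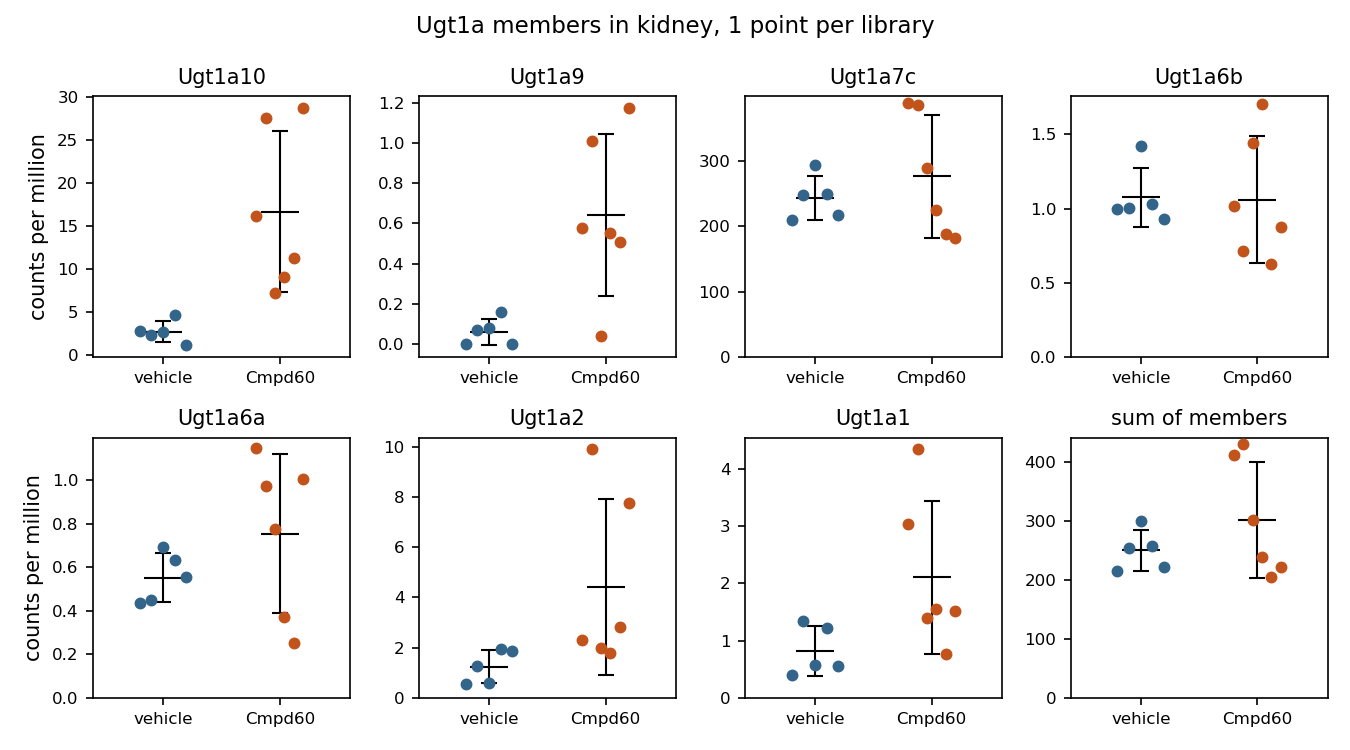
Level in CPM in kidney for each of the 7 genes and for their sum, with 1 point per library (5 vehicle, 6 Cmpd60), the group mean as a horizontal line and bars of 1 SD. Treated and vehicle libraries are apart for Ugt1a10 only, and Ugt1a7c and the sum have treated libraries on both sides of the vehicle range.

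Ugt1a10 encodes an isoform that in other mammals is expressed mainly outside the liver. Its level is given as CPM, counts per 1000000 of the library size after adjustment by TMM, which corrects for differences in composition. In the 5 vehicle kidneys it was 2.83, 2.32, 2.69, 4.62 and 1.22 CPM, from 46 to 117 counts. In the 6 Cmpd60 kidneys it was 16.1, 27.6, 7.27, 9.10, 11.2 and 28.6 CPM, from 187 to 854 counts. The groups did not overlap, and the lowest treated library lay above the highest vehicle library. The log2 fold change was 2.62 with an SE of 0.40, and it stayed between 2.40 and 2.89 when each of the 11 libraries was left out in turn. Within the treated group the level spanned a ratio of 3.94, close to the ratio of 3.79 within vehicle.

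Ugt1a9 encodes an isoform known for conjugating phenols. It had 0, 2, 2, 4 and 0 counts in the vehicle kidneys, at or near the floor of 3 counts that a count of 0 allows. The treated kidneys had 21, 27, 1, 15, 18 and 35 counts, so 5 of 6 lay above the vehicle range and replicate 52 within it. In CPM this was 0.0609 ± 0.0655 (SD, n = 5) in vehicle and 0.644 ± 0.403 (SD, n = 6) in Cmpd60, with a log2 fold change of 3.41 and an SE of 0.89. It ran from 3.06 to 4.11 (without vehicle replicate 48) when each library was left out, and since the vehicle mean lies under the floor of 3 counts per library, its size depends on the prior count of the fit. Replicate 52 was also the lowest treated library for Ugt1a10, and replicates 55, 51 and 50 were the highest in that order for both genes. Over the 11 kidney libraries the log2 CPM of Ugt1a10 and Ugt1a9 had a Pearson r of 0.91, and 0.79 after the group means were taken off. These points share libraries and depth, and the similar first exons could pass reads between both genes.

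Ugt1a2 and Ugt1a1 stood next in size of difference. Ugt1a2 was 0.560, 1.28, 0.577, 1.94 and 1.88 CPM in vehicle and 2.30, 9.89, 1.98, 1.78, 2.80 and 7.75 CPM in Cmpd60, where 5 of 6 libraries lay above the vehicle range and 2 stood well above the rest. The log2 fold change was 1.82 with an SE of 0.52. Ugt1a1, the isoform that conjugates bilirubin, was 0.404, 1.35, 0.577, 1.22 and 0.557 CPM in vehicle and 3.04, 4.35, 1.40, 1.55, 0.764 and 1.51 CPM in Cmpd60. Of the treated libraries 5 lay above the vehicle range, though 3 of these by little, and replicate 54 within it. The log2 fold change was 1.36 with an SE of 0.46.

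The remaining 3 genes had treated libraries both above and below the vehicle range. Ugt1a7c, the gene with nearly all counts of the locus, was 210, 249, 294, 249 and 217 CPM in vehicle and 389, 386, 290, 225, 188 and 182 CPM in Cmpd60. Replicates 50 and 51 lay above all vehicle libraries and replicates 54 and 55 below all of them, so the groups overlapped fully, with a log2 fold change of 0.18 and an SE of 0.20. Ugt1a6a, an isoform for small planar phenols, was 0.553 ± 0.112 CPM (SD, n = 5) in vehicle and 0.756 ± 0.365 CPM (SD, n = 6) in Cmpd60, with 4 treated libraries above and 2 below the vehicle range. Its near copy Ugt1a6b was 1.08 ± 0.198 and 1.06 ± 0.426 CPM, with 2 treated libraries above, 3 below and 1 within. The log2 fold changes were 0.45 with an SE of 0.43 for Ugt1a6a and -0.02 with an SE of 0.33 for Ugt1a6b.

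Of the 7 genes, 1 (Ugt1a10) passed an adjusted p of 0.05 in the kidney fit, where 0.3% of the 20698 genes tested did, and 1 had groups that did not overlap with treatment above, as did 1.1% of the genes tested. Both counts come from the contrast on which the genes were picked. Without vehicle replicate 46, or without vehicle replicate 47, 0 of the 7 passed. The 2 further genes of the locus that the choice left out had hardly any reads, with 0 counts for Ugt1a8 in all 11 kidney libraries and 0 to 6 for Ugt1a5.

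**Figure D3:**
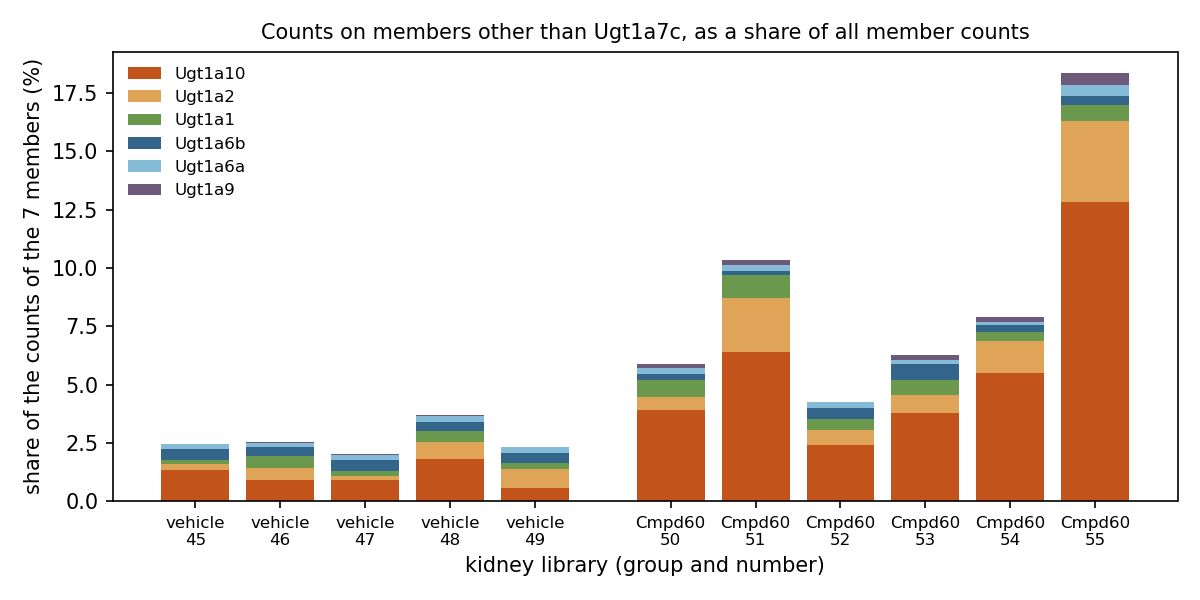
Counts on each member other than Ugt1a7c as a percentage of the counts of all 7 members, 1 stacked bar per kidney library. What the bars leave to 100% is Ugt1a7c, at 96.3% to 98.0% in vehicle and 81.6% to 95.7% in Cmpd60, and Ugt1a10 is the largest part of every treated bar.

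The makeup of the locus differed more than its total. The sum of the 7 genes was 215, 255, 300, 259 and 223 CPM in vehicle and 413, 430, 303, 240, 205 and 223 CPM in Cmpd60, which overlap. Ugt1a10 took 1.09% ± 0.475 (SD, n = 5) of the summed counts in vehicle and 5.81% ± 3.72 (SD, n = 6) in Cmpd60. Its lowest treated share was 2.40% in replicate 52 (95% exact binomial interval 2.07% to 2.77%), above its highest vehicle share of 1.79% in replicate 48 (1.48% to 2.14%), and its highest was 12.8% in replicate 55 (12.0% to 13.7%). These intervals cover counting error only. The share of Ugt1a7c was 96.3% to 98.0% in vehicle and 81.6% to 95.7% in Cmpd60, without overlap. The shares of the 7 genes add up to the whole, so this gap is not separate from that of Ugt1a10. If the 3′ tail was counted on Ugt1a7c alone, its share includes reads of other members and theirs are too low. The number of such reads was not tested.

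Between genes, levels can be compared only per length. Per 1000 bases of unshared first exon, the order in vehicle kidney was Ugt1a7c with a mean of 266 CPM, Ugt1a10 with 2.88, Ugt1a6b with 2.08, Ugt1a2 with 1.39, Ugt1a1 with 0.901, Ugt1a6a with 0.512 and Ugt1a9 with 0.0692. With the 998-base tail added to its length, Ugt1a7c was at 127 CPM per 1000 bases. That figure keeps all its counts, so it cannot show how many tail reads came from other transcripts of the locus. The vehicle range of Ugt1a7c lay wholly above that of Ugt1a10. Over first exons alone Ugt1a6a (0.403 to 0.641) also lay above Ugt1a9 (0 to 0.180), but over all 3001 unshared bases Ugt1a6a was at 0.145 to 0.231 and overlapped it. All other neighbours in this order overlapped over the 5 libraries. In Cmpd60 kidney the order was Ugt1a7c with 302 CPM per 1000 bases, Ugt1a10 with 17.6, Ugt1a2 with 4.91, Ugt1a1 with 2.30, Ugt1a6b with 2.05, Ugt1a9 with 0.733 and Ugt1a6a with 0.699, with only the range of Ugt1a7c apart from that of its neighbour. Reads of the 6a and 6b pair that map to both are not counted, which lowers both of these levels by an unknown amount.

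The promoters of the genes can be read from RefSeq, which held 6 of the 7 (Ugt1a6b was not among them). The 250 bases before the start of Ugt1a10 and Ugt1a9, which varied together in kidney, and of Ugt1a7c, which did not vary with them, are shown in lower case, with capitals kept for a match to either motif searched, of which there was none.
Ugt1a10: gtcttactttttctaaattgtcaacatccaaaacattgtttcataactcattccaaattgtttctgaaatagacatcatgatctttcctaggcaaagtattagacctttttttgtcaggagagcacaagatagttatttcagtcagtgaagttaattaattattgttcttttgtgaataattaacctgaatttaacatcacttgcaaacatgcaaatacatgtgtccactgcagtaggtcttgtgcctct
Ugt1a9: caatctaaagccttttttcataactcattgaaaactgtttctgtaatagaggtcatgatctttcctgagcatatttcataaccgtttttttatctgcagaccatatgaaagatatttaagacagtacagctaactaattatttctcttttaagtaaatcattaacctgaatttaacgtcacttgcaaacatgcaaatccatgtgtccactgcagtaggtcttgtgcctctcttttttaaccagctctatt
Ugt1a7c: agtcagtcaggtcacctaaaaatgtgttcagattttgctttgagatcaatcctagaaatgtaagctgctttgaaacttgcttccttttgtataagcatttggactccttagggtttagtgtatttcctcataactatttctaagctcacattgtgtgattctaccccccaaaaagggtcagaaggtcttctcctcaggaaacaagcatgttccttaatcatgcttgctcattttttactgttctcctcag

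These lie at chr1:88055161-88055410, chr1:88070529-88070778 and chr1:88094751-88095000 on the plus strand of GRCm38.p6. The Ugt1a10 and Ugt1a9 promoters were 68.9% identical, and the Ugt1a10 and Ugt1a7c promoters 46.8%. The core of the xenobiotic response element bound by the aryl hydrocarbon receptor AhR (GCGTG, either strand), held by 28.2% of 32841 RefSeq promoters, was in none of the 6, and neither was the antioxidant response element (TGACNNNGC, either strand), held by 10.2%. A match or its lack describes these letters in this window only.

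The kidney libraries fitted their label. The summed level of 9 proximal tubule markers was 9588 to 11744 CPM in vehicle and 5305 to 12897 CPM in Cmpd60, against 24.4 to 36.1 CPM in brain and 157 to 349 CPM in heart, and 0 of the 9 passed the test in kidney. Replicate 55, with the highest Ugt1a10 and Ugt1a9 of all, had the lowest sum of these markers (5305 CPM), and replicate 52, with the lowest treated Ugt1a10, had the highest (12897 CPM). Replicate 55 was also lowest for the sum of 7 markers of other nephron cells, with 4722 CPM against 7336 to 8502 CPM in the other treated kidneys and 7078 to 9237 CPM in vehicle. Without replicate 55 the log2 fold change of Ugt1a10 was 2.40. The part of tubule cell content in the result was not tested, and in whole tissue fewer cells of a type and less RNA per cell cannot be told apart. The sum of 5 liver markers was 1271 to 1541 CPM in vehicle and 512 to 1258 CPM in Cmpd60, nearly all of it from Cyp2e1, which kidney also expresses, with Alb at 9.80 CPM and Serpina1e at 0.0774 CPM in vehicle. Of 3 adrenal markers, Cyp11b1 and Cyp11a1 were at or near 0. The sum of 6 neuron and glia markers was 81.5 to 127 CPM in vehicle kidney and 98.9 to 179 CPM in Cmpd60 kidney, with 0 of the 5 tested called. Of all marker genes in kidney 1 was called, Ttr, which encodes transthyretin and fell from 48.8 ± 11.5 (SD, n = 5) to 18.1 ± 5.63 CPM (SD, n = 6), with an adjusted p of 0.00679. The part of these cells in the result was not tested. Over all 54 libraries 23584609 to 57430113 reads were counted on genes, 1.63% to 2.49% of reads were set aside as ambiguous, and no libraries held identical counts.

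**Figure D4:**
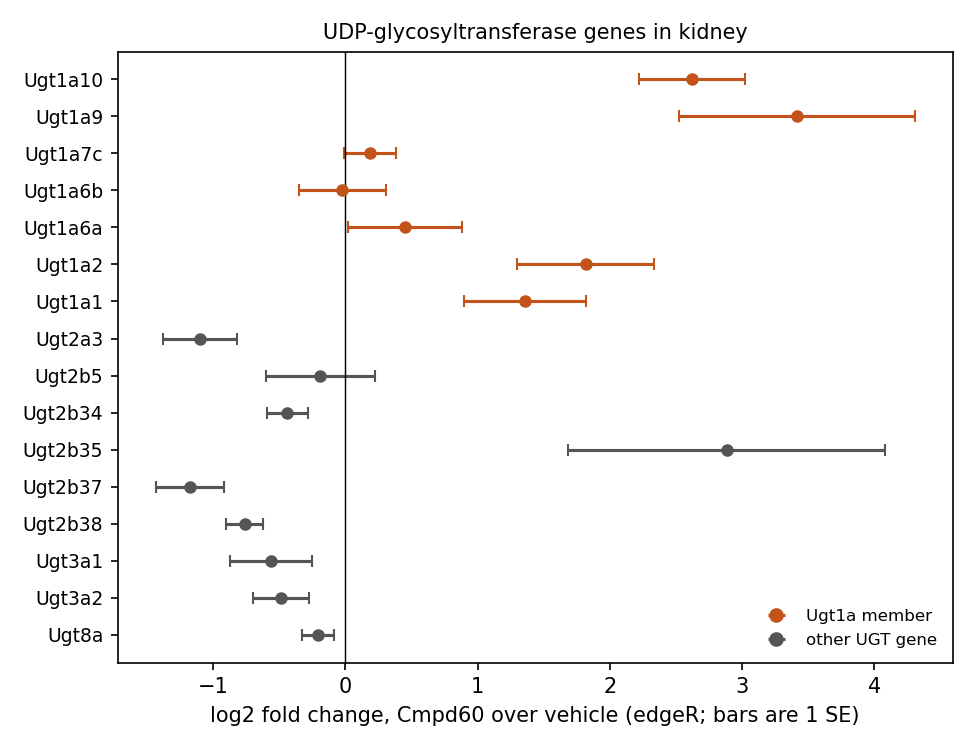
Log2 fold change of Cmpd60 over vehicle in kidney, with bars of 1 SE, for the 7 Ugt1a members (orange, picked on this contrast) and the 9 other UDP-glycosyltransferase genes tested (grey). Of the members 6 lie above 0 and Ugt1a6b lies at -0.02, and 8 of the 9 other genes lie below 0.

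Other UDP-glycosyltransferase genes give the setting. Of 15 such genes on the list, 9 were tested in kidney, 1 was called lower and 0 higher, and 8 of 9 had a log2 fold change below 0, with a median of -0.49 against -8.01e-05 over all genes tested. Ugt2b38, a member of the steroid-conjugating Ugt2b family, fell from 690 ± 55.8 (SD, n = 5) to 407 ± 89.8 CPM (SD, n = 6), with a log2 fold change of -0.76, an SE of 0.14 and an adjusted p of 0.032. The summed level of the list was 2323 to 2709 CPM in vehicle and 884 to 2298 CPM in Cmpd60. The Ugt2b38 call was kept when replicate 52 or 55 of Cmpd60 was left out and lost when any of the other 9 libraries was (adjusted p 0.00984 to 0.114 over the 11). Ugt2b37 was 207 CPM in vehicle and 91.6 CPM in Cmpd60 (adjusted p = 0.0852), Ugt2a3 was 3.28 and 1.52 CPM (0.127), and Ugt3a2, the most abundant of the list, was 1227 and 875 CPM (0.407). The 1 gene above 0, Ugt2b35, was at 0.0266 and 0.220 CPM, close to its floor.

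Glucuronidation needs UDP-glucuronic acid, which Ugp2 and Ugdh help to make and nucleotide sugar transporters bring into the endoplasmic reticulum. None of the 8 genes of this supply was called in kidney, brain or heart by edgeR's test, with 1, 2 and 0 of them at an unadjusted p under 0.05. In kidney the most abundant, Entpd5, was 578 ± 56.4 CPM in vehicle (SD, n = 5) and 653 ± 162 CPM in Cmpd60 (SD, n = 6), and Ugp2 was 193 and 192 CPM. Gusb, the beta-glucuronidase that removes glucuronic acid again, was 47.97 and 37.4 CPM (unadjusted p = 0.00299, adjusted p = 0.172).

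Of 9 genes that make bilirubin or export its conjugates, 1 was called in kidney. Abcc4, an export pump of the kidney for organic anions, rose from 99.5 ± 7.14 (SD, n = 5) to 138.5 ± 15.9 CPM (SD, n = 6), with a log2 fold change of 0.48, an SE of 0.09 and an adjusted p of 0.0384. The call held without replicate 52 or 55 of Cmpd60 or 48 of vehicle and was lost without any of the other 8 libraries (adjusted p 0.0172 to 0.136). Abcc2, the main conjugate exporter of the luminal membrane, was 447 and 425 CPM (adjusted p = 0.896). The list's median log2 fold change was 0.10 in kidney.

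Among 11 listed regulators of Ugt1a, mostly transcription factors, 0 were called in kidney by edgeR, with 2 at an unadjusted p under 0.05, Nfe2l2 and Nr1i2. Nr1i2, the xenobiotic receptor PXR, was 9.47 ± 0.511 CPM in vehicle (SD, n = 5) and 13.2 ± 2.44 CPM in Cmpd60 (SD, n = 6), with an adjusted p of 0.155, and Nfe2l2, which encodes NRF2, was 131 and 153.9 CPM (adjusted p = 0.367). The most abundant factor was Hnf4a with 1025 and 966 CPM (adjusted p = 0.871). DESeq2 called 1 gene of this list.

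The target genes of these factors were read in the same way. Of 6 AhR battery genes tested 0 were called (2 at an unadjusted p under 0.05), and Cyp1a1, the classical AhR target, was 0.795 CPM in vehicle and 0.609 CPM in Cmpd60 (adjusted p = 0.814). All 10 NRF2 target genes had a log2 fold change above 0 in kidney, with a median of 0.24, yet 0 were called (4 at an unadjusted p under 0.05). Nqo1, a quinone reductase on both lists, was 68.8 ± 10.9 CPM in vehicle (SD, n = 5) and 133 ± 48.4 CPM in Cmpd60 (SD, n = 6), with an adjusted p of 0.0831. Cyp1b1, the most abundant AhR battery gene in vehicle, was 69.4 and 74.2 CPM (adjusted p = 0.901). The most abundant NRF2 targets, Gclc and Gclm, which encode both subunits of the enzyme that starts glutathione synthesis, were 380 and 406 CPM (adjusted p = 0.842) and 366 and 400 CPM (adjusted p = 0.76). G6pdx, picked after its values were seen, was 41.8 and 57.7 CPM (adjusted p = 0.0755). DESeq2 called 1 AhR battery gene and 2 NRF2 targets. Of 5 CAR and PXR targets tested 0 were called and 0 had an unadjusted p under 0.05, with Por at 354 and 371 CPM and Alas1 at 286 and 364 CPM (adjusted p = 0.44). The sulfotransferases and their cofactor enzymes, which offer the other common route of conjugation, had 0 calls of 9 (1 at an unadjusted p under 0.05). Sult1d1 was 964 and 735 CPM (adjusted p = 0.392), and Papss2 was 370 and 402 CPM (adjusted p = 0.805).

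Which genes varied like the locus was read over the 11 kidney libraries, without a p. The 5 genes with at least 1 CPM whose log2 CPM followed the sum of the members most closely were Cyb5b (r = 0.98), a cytochrome b5 of the outer mitochondrial membrane, Tmem116 (0.95), Ppm1k (0.94), a mitochondrial phosphatase, BC021785 (0.94) and Gdi2 (0.94). With group means taken off, r stayed between 0.94 and 0.98. Likeness to Ugt1a10, looked up after its values were seen, gave other genes: Cyp2d22 (0.98), a cytochrome P450, Tgm2 (0.98), a transglutaminase, Cbr1 (0.97), a carbonyl reductase, Fbp2 (0.97) and Rarres2 (0.96). Within groups these were 0.88 to 0.96. The libraries that share each pair of values also share their depth and composition. Among the members, Ugt1a7c followed Ugt1a10 with an r of only 0.23.

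**Figure D5:**
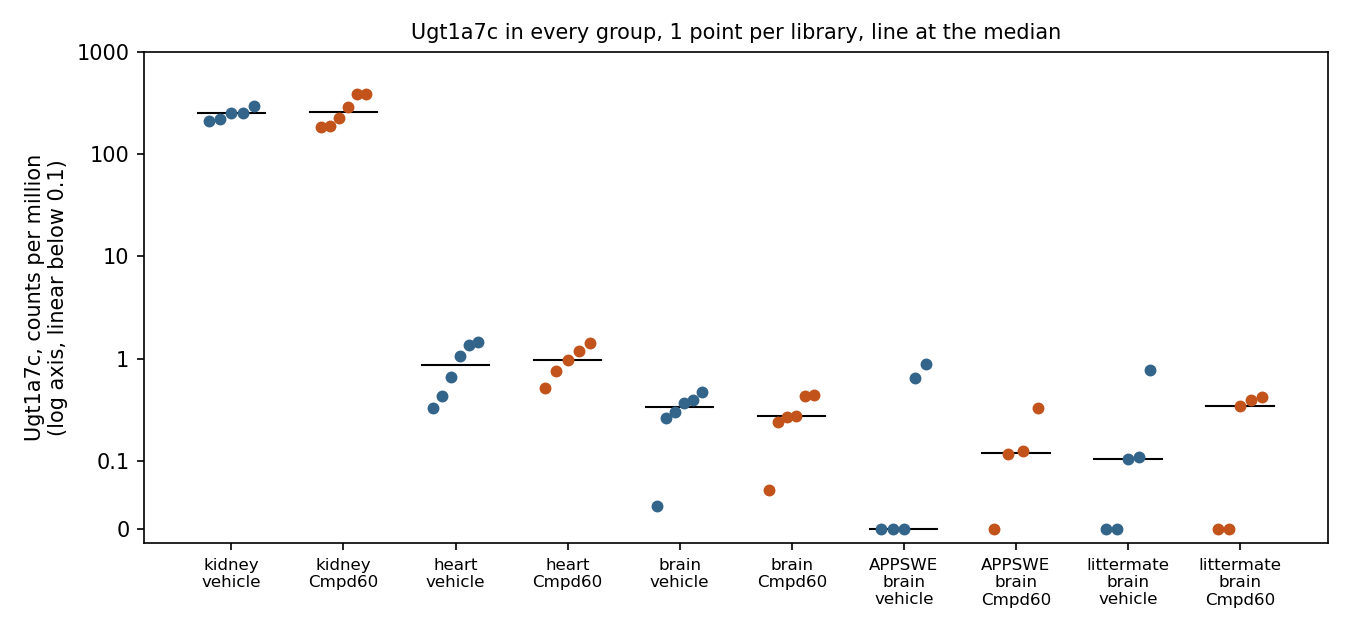
Ugt1a7c in CPM for every library, by group, on a log axis that is linear below 0.1, with a line at the group median; kidney, heart, older brain and younger brain were each scaled alone, so small gaps between tissues cannot be read from it. Kidney libraries lie between 182 and 389 CPM, heart libraries between 0.330 and 1.47 CPM, and brain libraries at or below 0.889 CPM, several of them at 0.

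Levels between tissues were tested in vehicle mice in a single fit of the 34 libraries of the older mice. The vehicle kidney libraries had also served in choosing the genes, though through another contrast. The labels give 6 Cmpd60 and 7 vehicle mice of this age, so the 17 vehicle libraries of the 3 tissues share animals that could not be matched, and the tests treat them as independent. Of all 27105 genes tested, 32.8% were called higher in kidney than in brain and 31.1% higher than in heart. Ugt1a10, Ugt1a9, Ugt1a2 and Ugt1a1 had no count in vehicle brain or heart and entered the fit through kidney alone, so their calls follow from the filter and no count of calls over the members is given. On the one scale of this fit, Ugt1a7c was 231 ± 31.9 CPM in vehicle kidney (SD, n = 5), 1.11 ± 0.580 CPM in vehicle heart (SD, n = 6) and 0.258 ± 0.129 CPM in vehicle brain (SD, n = 6). Its fold in kidney was 884 over brain (log2 9.79, SE 0.32, adjusted p = 2.71e-25) and 206 over heart (log2 7.69, SE 0.28, adjusted p = 1.4e-23). For members whose level in the other tissue was 0 or under 3 counts per library, a lower bound is given, set against 3 counts in each library. Ugt1a10 was at least 29.5-fold higher in kidney than in brain and at least 19.2-fold higher than in heart. For Ugt1a2 the bounds were 13.4-fold and 8.73-fold, and for Ugt1a1 8.87-fold and 5.76-fold. Ugt1a6b was at least 11.6-fold higher than in brain and, with 159 counts against 10, at least 7.54-fold higher than in heart (adjusted p = 0.000116). Ugt1a6a, with 82 counts against 7, was at least 5.97-fold higher than in brain. It too passed the filter only through the kidney libraries, so its adjusted p is not given. For Ugt1a6a over heart, with 82 counts in vehicle kidney against 1 in vehicle heart, the bound was 3.88-fold. The ratio of these counts was 71.1 after scaling for depth (95% exact interval 12.4 to 2841, counting error only). It rests on the 1 count in vehicle heart replicate 65. Ugt1a9 had 8 counts over the vehicle kidneys and 0 elsewhere, under the floor on both sides, so no fold is given. Its calls follow from the filter and are not read. They were also lost against brain with DESeq2, and against heart in 11 of 16 alternatives. Those 11 were DESeq2, limma-voom and 9 of the 11 fits without 1 library.

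In the heart only Ugt1a7c was present in every library. It had 37, 11, 8, 30, 39 and 28 counts in vehicle and 19, 19, 35, 29 and 51 counts in Cmpd60, that is 0.889 ± 0.482 CPM (SD, n = 6) and 0.977 ± 0.354 CPM (SD, n = 5), with full overlap. The log2 fold change was 0.13 (SE 0.40, approximate 95% interval from -0.66 to 0.93, adjusted p = 0.927). Ugt1a6b had 4 counts or fewer in each vehicle heart, and its 9 counts in Cmpd60 all came from replicate 68 (log2 fold change -0.25, SE 1.34, adjusted p = 0.964). The other 5 members did not reach the filter. Of the 2 tested 0 were called, where 1.18% of 19452 genes were, and 0 had an unadjusted p under 0.05. The tissue label held, with a sum of 4 heart muscle markers of 43269 to 52527 CPM.

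In the brain of the older mice Ugt1a7c had 7, 13, 9, 12, 11 and 1 counts in vehicle and 16, 8, 11, 10, 2 and 25 in Cmpd60. That is 0.307 ± 0.153 and 0.287 ± 0.141 CPM (SD, n = 6 each), and both groups held 1 library far below the rest. The log2 fold change was -0.07 (SE 0.45, interval from -0.96 to 0.82, adjusted p = 0.968). Ugt1a6a had 0 to 3 counts per library, and Ugt1a6b was listed at 0 in 11 of 12. Ugt1a10, Ugt1a9, Ugt1a2 and Ugt1a1 were at 0 in all 12. On the scale of the fit of 34 libraries, which differs from that of the levels just given, 3 counts were worth a mean of 0.0877 CPM in vehicle brain. A count of 0 allows up to that level. Of the 1 member tested 0 were called by edgeR (also 0 at an unadjusted p under 0.05), where 0.0205% of 24438 genes were. The brain libraries had 8949 to 10540 CPM on 6 neuron and glia markers.

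Between both low tissues, Ugt1a7c was 4.28-fold higher in vehicle heart than in vehicle brain (log2 2.099, SE 0.42, adjusted p = 4.21e-05). Of all genes tested, 28.9% were called higher in heart. Ugt1a6b had 10 counts in vehicle heart against 0 in vehicle brain. It passed the filter only through heart and kidney, so its call follows from the filter and is not read. Within each tissue's own scaling the levels given above differ less, since those scales are not shared. With limma-voom the adjusted p of Ugt1a7c was 0.0678, and over all alternatives it ran from 1.16e-08 to 0.0678. Whether the effect of Cmpd60 differed between heart and brain was tested as an interaction, in which 0.0517% of genes were called. Ugt1a10, Ugt1a9, Ugt1a2 and Ugt1a1 had no count or at most 2 in a library of these tissues, so the test says nothing of them. For Ugt1a7c the difference of the log2 fold changes was 0.15 (SE 0.62, adjusted p = 1).

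In the younger brains many libraries had no count at all. Ugt1a7c had 0, 18, 0, 24 and 0 counts in APPSWE vehicle and 0, 7, 3 and 9 in APPSWE Cmpd60, with a log2 fold change of -1.07 (SE 1.84, adjusted p = 0.969). In littermates it had 3, 4, 22, 0 and 0 counts with vehicle and 0, 11, 0, 10 and 15 with Cmpd60, with a log2 fold change of 0.22 (SE 1.70, adjusted p = 0.999). It was the 1 member tested there, and 0% of 23194 genes were called by edgeR in either comparison, with 2195 and 852 genes at an unadjusted p under 0.05. No difference was detectable at this depth, and the intervals, from -4.69 to 2.54 and from -3.11 to 3.54 on log2, were wide.

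Outside kidney the related lists held few calls. In heart Abcc3, another conjugate exporter, rose from 1.51 ± 0.271 (SD, n = 6) to 2.98 ± 0.697 CPM (SD, n = 5), with a log2 fold change of 0.98, an SE of 0.21 and an adjusted p of 0.0394. Nqo1 rose in heart from 61.7 ± 6.33 to 85.8 ± 16.5 CPM, with a log2 fold change of 0.48, an SE of 0.11 and an adjusted p of 0.0483. The Abcc3 call was kept only without replicate 71 of Cmpd60 or 62 of vehicle and the Nqo1 call only without replicate 71, and either was lost when any other single heart library was left out (adjusted p up to 0.118 and 0.116). Nqo1 also missed the threshold when all 34 libraries were fitted together (adjusted p = 0.159). In brain 0 genes of the 8 lists were called by edgeR, and the lists held between 0 and 3 genes at an unadjusted p under 0.05. The 1 other UDP-glycosyltransferase gene tested there, Ugt8a, which makes a myelin lipid, was 68.8 CPM in vehicle and 57.8 CPM in Cmpd60 (adjusted p = 0.17).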

How the data were processed

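Per the study's methods, trimming used Trimmomatic 0.32, alignment HISAT2 2.1.0, and the authors obtained counts for Ensembl genes from HTSeq 0.11.0, run in its default mode with read direction; the genome build is not given in the sources used here. The deposited values are raw counts, 1 file per library with 54232 genes and 5 summary lines; reads on no gene, ambiguous or not uniquely mapped (15.4% to 22.1% of those in a file) stayed out of library sizes. Default counting leaves out reads that fit 2 genes. Libraries were made from poly-A RNA with a kit that keeps strand.

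From these counts, edgeR 4.0.16 (R 4.3.3) was run with TMM scaling and quasi-likelihood tests on genes whose count exceeded 2 in 3 or more libraries of a fit. P-values were adjusted by Benjamini-Hochberg across every tested gene, and 0.05 was the threshold. Kidney, brain and heart were fitted each alone, the 34 libraries of older tissue together, and the younger brains together. DESeq2 1.42.0 and limma-voom (limma 3.58.1), DESeq2 size factors in edgeR, other filters, other sets of libraries and leaving out each library were the alternatives. The fits were tested on simulated data. The study's methods used limma-voom. A sum over members was not tested. Symbols matched 32651 IDs. Sequences came from GENCODE M1 and RefSeq; lengths came from GENCODE M1 first exons, since no RefSeq protein table was used, which departs from the plan.

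The members and the gene lists were chosen with earlier results of these data known. Named were every member, list genes past the threshold or the 2 of highest mean CPM in the tissue, with some others shown after their values were seen, and the 5 genes most like the sum; 1 list gene that the rule names is not reported here. For 1 APPSWE brain library the labels and a table of the study disagree on the treatment, so it is in no group. Replicate numbers come from the titles. The older tissues came from 1 cohort, but nothing in the titles ties the tissues of 1 mouse together, and p-values measure the spread between these samples. Precision at low level is set by counts: 3 counts, the floor used for a count of 0, are at most 0.127 CPM in any library before adjustment by TMM. On the scale of the fit of 34 libraries they were worth a mean of 0.135 CPM in vehicle heart.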

Additional observations from a re-analysis of the deposited data

Results flagged for a closer look

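Over 49 sets of values, each of a member, the sum or the sum of a kidney marker list in 1 group, 11 values from 10 libraries stood far from the rest of their group. Chance gives about 1 in 20 sets for measured values, but in 7 of the 11 all other libraries were at 0, where any count stands apart by construction, so the number of such values is not read. Ugt1a6b was 0.0486 CPM in brain Cmpd60 replicate 36, 0.248 CPM in heart Cmpd60 replicate 68 and 0.156 CPM in littermate brain Cmpd60 replicate 153, with all other libraries of each group at 0. Ugt1a6a was 0.0180 CPM in APPSWE brain Cmpd60 replicate 143, 0.0414 CPM in heart Cmpd60 replicate 71 and 0.0357 CPM in heart vehicle replicate 65, again with the others at 0, and Ugt1a1 was 0.0401 CPM in heart Cmpd60 replicate 69 only.

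In vehicle kidney, Ugt1a6b was 1.42 CPM in replicate 47 against 0.928 to 1.03 CPM in the others. In vehicle brain the sum of the members was 0.0681 CPM in replicate 32 against 0.338 to 0.478 CPM. In vehicle littermate brain Ugt1a7c, and with it the sum, was 0.781 CPM in 1 library against 0 to 0.1103 CPM in the other 4. Without that library the log2 fold change of Ugt1a7c in littermates was 2.01 in place of 0.22, and its adjusted p stayed at 0.999 or above under all alternatives.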

How the results depend on the processing

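No paired analysis was possible because the groups share no replicate numbers. With DESeq2, 2 members were called in kidney (Ugt1a10 and Ugt1a2), and the genes called were 429 in kidney, 429 in brain, 746 in heart, 187 for heart against brain effects, 22 in APPSWE and 4 in littermate brain, against 62, 5, 229, 14, 0 and 0. Without a filter 94 genes were called in kidney, 102 in brain, 8 in APPSWE and 2 in littermate brain. With all 34 older libraries together the numbers were 552 in kidney and 0 in brain. Limma-voom called 2 genes in brain, and in vehicle heart against brain it no longer called Ugt1a7c. With only the groups compared 1 gene was called in APPSWE brain. Of the lists in kidney, other UGT genes had 3 calls with DESeq2, 2 without a filter and 2 in the fit of 34, AhR genes 1 in each, NRF2 targets 2, 1 and 2, regulators 1 with DESeq2 and the UDP-glucuronic acid genes 1 in the fit of 34. In heart DESeq2 called 1 regulator, 2 AhR genes and 1 sulfotransferase gene, and the fit of 34 called 0 AhR and 0 NRF2 genes. The list and length alternatives were added after seeing the data; with its tail, Ugt1a7c was at 127 CPM per 1000 bases, and over all its unshared bases Ugt1a6a was at 0.184 in place of 0.512. Under limma-voom the log2 fold change of Ugt1a7c was 0.031 in brain (adjusted p = 0.987) and 0.47 in APPSWE brain (0.927), both of opposite sign. The cause was not tested.

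Leaving out 1 library at a time gave 0 to 1 members called in kidney and 20 (without vehicle replicate 46) to 131 genes (without Cmpd60 replicate 52), 1 to 372 genes in brain, 36 to 247 in heart, 1 to 36 for heart against brain effects and 0 to 2 in littermate brain. Counts of members called for kidney against brain or heart are not read. Ugt1a10, Ugt1a9, Ugt1a6a, Ugt1a2 and Ugt1a1 passed the filter of that fit only through kidney. For heart against brain, Ugt1a7c kept its call in all 12 fits without 1 library (log2 1.86 to 2.26). In the main fit 28.9% of all genes were called higher in heart. Other member calls there are not read, since Ugt1a6b passed the filter only through heart and kidney and Ugt1a6a only through kidney. The lists ran from 0 to 2 calls (other UGT genes in kidney) and from 0 to 1 (bilirubin, AhR and NRF2 genes in kidney and heart, sulfotransferases in heart). The log2 ratio of the sum ran from 0.14 to 0.36 in kidney, -0.30 to 0.07 in brain, 0.00 to 0.36 in heart, -1.82 to -0.13 in APPSWE and 0.04 to 2.29 in littermate brain. Sign changes came with Ugt1a7c in brain (-0.30 to 0.13), heart (-0.046 to 0.33), littermates (-0.10 to 2.01) and heart against brain (-0.041 to 0.39), Ugt1a6b in heart (-3.99 to 0.24) and kidney (-0.21 to 0.097) and Ugt1a6a for heart against brain (-1.21 to 2.00). DESeq2 gave no adjusted p for 1 member each in kidney, brain and heart. Depth limits every member value in brain and heart.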

Other observations

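The APPSWE brain library whose treatment the labels and a table of the study give differently was put in no group and had 0 counts on all 7 members. Counting it as Cmpd60 or as vehicle left 0 members called in both young comparisons.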
